A study of Homo sapiens with 6 samples.

Results

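The genes described here were 34 genes of the endoplasmic reticulum (ER) unfolded protein response, chosen by name for their known roles: the sensors of the response, its transcription factors, ER chaperones, disulfide isomerases, factors of ER-associated degradation (ERAD) and a few genes of protein transport. The rule named genes and set no expression threshold, but it was written with earlier results of these data known. All 34 symbols were found among the 58735 genes of the table, and 33 of them had enough counts to be tested. DERL3 was the exception, with between 0 and 6 counts per sample.

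RNA-seq was performed on PANC-1, a widely used cell line grown from a human pancreatic duct carcinoma. The si-NC group held 3 samples that received control siRNA, and the si-METTL16 group held 3 samples that received siRNA against METTL16, an enzyme that places N6-methyladenosine (m6A) on RNA. The labels give no other allele or agent for either group, and neither a dose nor a time after transfection. The methods describe biological triplicates of this 1 line, stably transfected. A further label calls the si-NC samples wild type, whereas their titles and the methods name control siRNA.

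The ER is where secreted and membrane proteins are folded, and HSPA5 (BiP) is its main HSP70 chaperone. When unfolded proteins build up, the response is started by a trio of sensors in the ER membrane. IRE1, the product of ERN1, cuts the XBP1 mRNA so that an active transcription factor is made. PERK, the product of EIF2AK3, phosphorylates eIF2-alpha, which slows translation and favours ATF4. ATF6 moves to the Golgi and is cleaved there into a transcription factor. The cleaved ATF6 and spliced XBP1 then raise chaperone, folding and ERAD genes, a programme that secretory tissue such as the pancreas relies on.

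The counts of the 6 samples summed to between 15725298 and 18054436, and 3 counts corresponded to between 0.166 and 0.191 CPM, counts scaled to a common library total. METTL16 itself was counted 1546, 1641 and 1764 times in controls and 571, 528 and 627 times in silenced samples. It fell by 1.48 on the log2 scale (SE 0.07, adjusted p = 8.34e-05), to 35.9% of control. Epithelial keratins were abundant, and the summed CPM of 9 duct and epithelial markers lay between 3060 and 4140 in si-NC and between 3280 and 3580 in si-METTL16 samples, although 4 of the 8 tested markers (KRT7, KRT19, CDH1 and SOX9) were lower after silencing. The summed CPM of 6 acinar markers was at most 0.296, with CPA1 and AMY2A at 0 in each sample, that of 4 endocrine markers at most 0.389 and that of 3 endothelial markers at most 0.913. Summed immune markers moved from 5.74–5.83 to 7.79–9.45 CPM, nearly all of it CD68, with CD3E at 0. Summed fibroblast markers moved from 323–374 to 801–840 CPM, nearly all of it COL1A1, while DCN, LUM and PDGFRB had at most 8 counts. The part of these shifts in the results below was not tested.

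Silencing of METTL16 was followed by lower RNA of the sensors ERN1 and ATF6 and of the transcription factor XBP1, by lower CRELD2, SEC24D, SEL1L, MANF and EDEM1, and by higher EIF2AK3, PDIA4 and DNAJB11. The calls of MANF, EDEM1, EIF2AK3 and DNAJB11 were lost in some of the fits without a single sample. The most abundant chaperones, HSPA5 and CANX, differed by less than the spread between replicates. Of the 33 tested members, 11 (33.3%) passed an adjusted p of 0.05 in edgeR's quasi-likelihood test, against 35.9% of the 15089 genes tested. By direction, 8 of the 33 were lower, above the 17.5% of genes called lower, and 3 of the 33 were higher, below the 18.4% called higher. This split by direction was not tested. The share of members called in either direction was near that of genes in general, and the list as a whole was not set apart by it. The 2 groups did not overlap in CPM for 15 members (45.5%), against 50.9% of all tested genes.

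The sizes of the differences were small beside those of all tested genes, in a comparison that was not matched for level of expression. The median log2 fold change was -0.04 over members and -0.00 over all tested genes, and the median absolute value was 0.18 over members and 0.33 over all genes. Differences of 0.5 or more on the log2 scale, in either direction, were seen for 6 members (18.2%) and for 32.9% of all tested genes. The count of 8 lower members became 6 or 7 when single samples were left out. The count of 3 higher members fell to 1 without si-NC replicate 2 or without si-METTL16 replicate 1 and rose to 5 without si-METTL16 replicate 3. A bulk measurement cannot tell fewer cells expressing a gene from less RNA per cell.

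**Figure D1:**
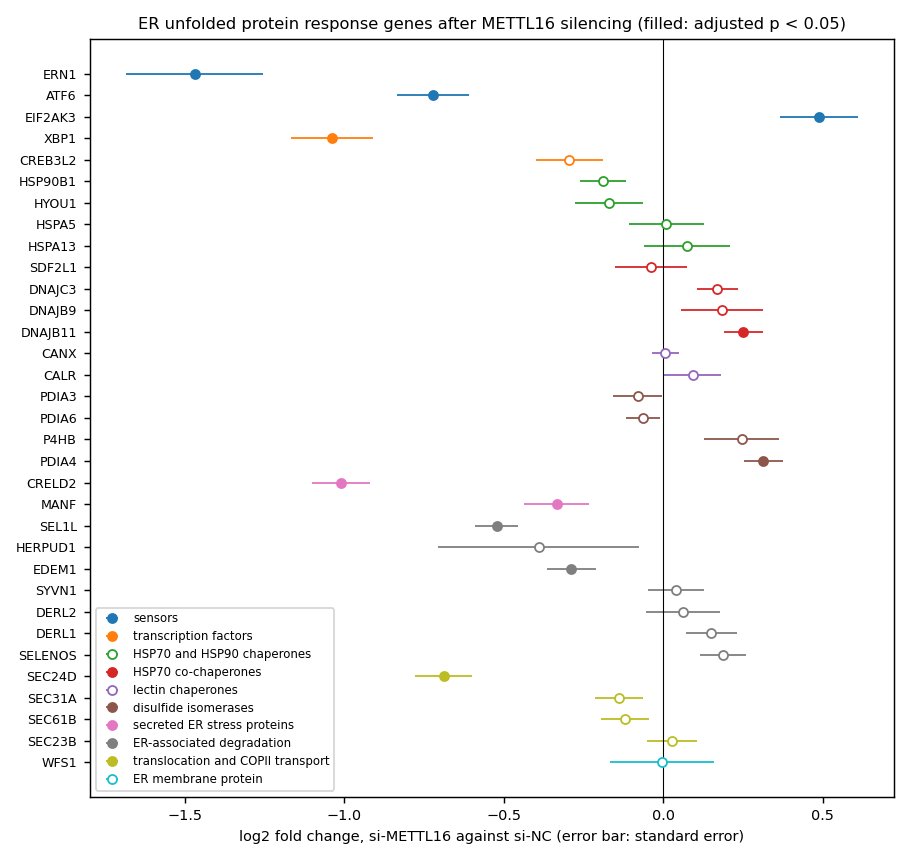
Log2 fold change of each of the 33 tested members in si-METTL16 against si-NC samples (x axis), with members on the y axis grouped by role and coloured by it. Error bars are standard errors, and filled points passed an adjusted p of 0.05: 8 lie to the left of 0 and 3 to the right, with ERN1 at -1.47 and EIF2AK3 at 0.49 at the ends.

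All 3 sensor genes passed the test, in opposite directions. ERN1 (chromosome 17 from 64039142 to 64130819, GRCh38) encodes IRE1, a kinase and endoribonuclease, and was counted 587, 492 and 595 times in si-NC and 261, 137 and 190 times in si-METTL16 samples. The lowest control stood well above the highest silenced sample. Its level went from 32.6 ± 3.11 to 11.8 ± 3.71 CPM (SD, n = 3 per group), a log2 fold change of -1.47 (SE 0.21, 95% interval -1.97 to -0.96, adjusted p = 0.00214). ERN1 was the member with the lowest ratio, at 36.1% of control, and it was called under each of the 17 alternatives. In GENCODE v44 a pair of long noncoding RNAs on the opposite strand overlap 2.26% and 2.36% of its exonic bases.

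ATF6 (chromosome 1 from 161766294 to 161964070), the sensor that becomes a transcription factor on cleavage, had 2222, 1741 and 1908 counts in si-NC and 1257, 1017 and 1188 in si-METTL16 samples. Again the groups were separate. The log2 fold change was -0.72 (SE 0.11, 95% interval -0.99 to -0.46, adjusted p = 0.0029), and it was called under each alternative. EIF2AK3 (chromosome 2 from 88556741 to 88627576), which encodes PERK, went the other way, with 702, 603 and 669 counts in si-NC and 977, 886 and 814 in si-METTL16 samples. The groups did not overlap, and si-METTL16 replicate 3 was nearest to the controls, at 45.3 CPM against 41.5 CPM in si-NC replicate 1. The log2 fold change of EIF2AK3 was 0.49 (SE 0.12, 95% interval 0.20 to 0.77, adjusted p = 0.0189). Its adjusted p was 0.0646 without si-NC replicate 2, 0.058 without si-NC replicate 3, 0.0564 without si-METTL16 replicate 1 and 0.0619 without si-METTL16 replicate 2, and 0.067 in limma on log2(FPKM + 1) with no minimum level.

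XBP1 (chromosome 22 from 28794555 to 28800597) encodes the transcription factor that IRE1 activates by splicing. It was counted 1426, 1851 and 1422 times in si-NC and 791, 648 and 788 times in si-METTL16 samples. The si-NC samples spread more widely than the silenced ones, because replicate 2 was high, and no value of one group reached the other. XBP1 went from 91.5 ± 15.3 to 44.5 ± 3.38 CPM (SD, n = 3), a log2 fold change of -1.04 (SE 0.13, 95% interval -1.34 to -0.74, adjusted p = 0.00105). It kept its call under each of the 17 alternatives, with a log2 fold change between -1.12 and -0.90 when single samples were left out.

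The part of the XBP1 mRNA that IRE1 removes is shown as the annotation places it. The reason is that the counts are given per gene and do not separate the spliced from the unspliced form. The 26-base intron lies in exon 4 of XBP1-201 (GENCODE v44, GRCh38, chr22:28796128-28796153, minus strand) and is absent from XBP1-202. Capitals mark the intron as GENCODE places it, read 5′ to 3′ on the strand of the gene, with 20 bases on each side (chr22:28796108-28796173). The marked stretch begins with a G and is followed by a G. The annotation therefore does not fix which of these G bases is removed, and the spliced sequence is the same either way.

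XBP1 intron: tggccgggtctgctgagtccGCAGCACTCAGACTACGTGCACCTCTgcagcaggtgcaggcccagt

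The splicing by IRE1 therefore could not be measured here, and the lower XBP1 count refers to the sum of both forms. CREB3L2, an ER-anchored transcription factor that is cleaved like ATF6, had 861, 839 and 704 counts in si-NC and 612, 612 and 685 in si-METTL16 samples. Its groups did not overlap, yet the log2 fold change of -0.29 (SE 0.11, 95% interval -0.54 to -0.04) missed the threshold with an adjusted p of 0.067. Without si-NC replicate 3 it was -0.39 with an adjusted p of 0.0185.

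**Figure D2:**
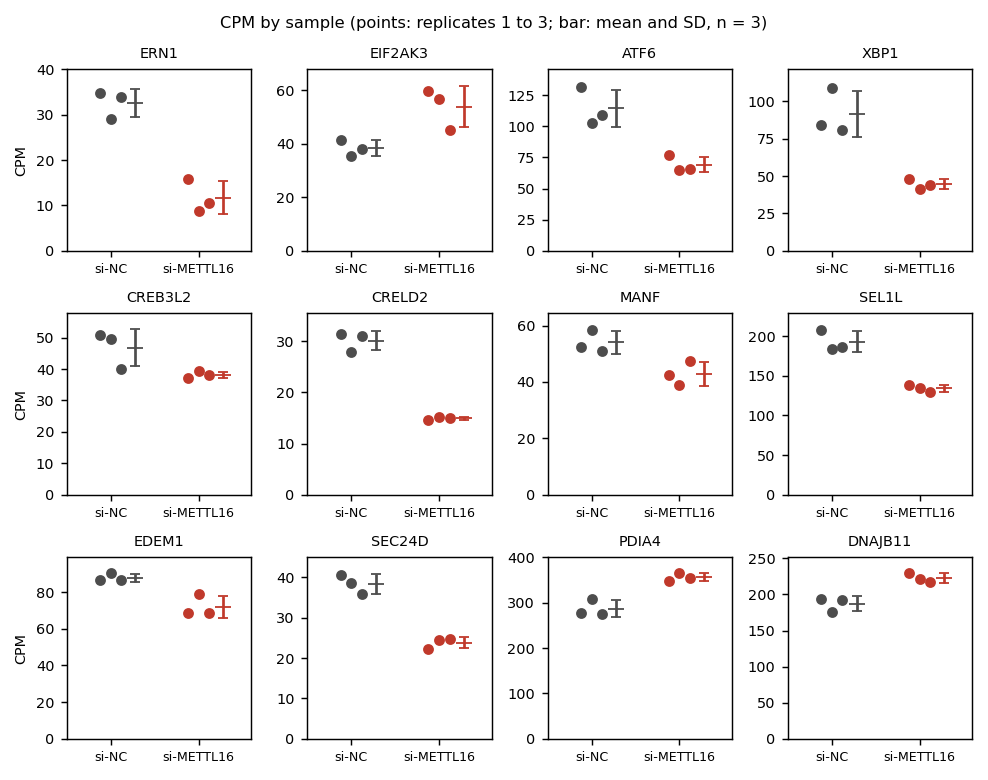
CPM (y axis, from 0) of 12 members in each sample of the si-NC and si-METTL16 groups (x axis), with the mean and SD of the 3 replicates beside the points. The points of the 2 groups do not overlap in any panel, and CREB3L2 is the panel that did not pass the test.

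The main ER chaperones of the HSP70 and HSP90 families held 0 calls in 4 genes by edgeR, DESeq2 or limma, and 1 of them, HSP90B1, had an unadjusted p under 0.05 in edgeR. HSPA5 (chromosome 9 from 125234853 to 125241330) was counted 20196, 16042 and 17997 times in si-NC and 20055, 15776 and 17159 times in si-METTL16 samples. The replicates of each group ranged over the same values. Its log2 fold change was 0.01 (SE 0.12, 95% interval -0.27 to 0.28, adjusted p = 0.959), and its sign depended on the scaling, with -0.013 under library totals and -0.019 under upper-quartile factors.

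HSP90B1 (GRP94, chromosome 12 from 103930107 to 103953645), the HSP90 of the ER, had 14044, 13327 and 13930 counts in si-NC and 10409, 11810 and 12991 in si-METTL16 samples. Each silenced sample was below each control, and the silenced samples differed more among themselves than the controls did. The log2 fold change of HSP90B1 was -0.19 (SE 0.07, 95% interval -0.36 to -0.02), with an adjusted p of 0.0805. HYOU1, a large HSP70-like protein that helps HSPA5 exchange nucleotide, had a log2 fold change of -0.17 (95% interval -0.42 to 0.08, adjusted p = 0.257). HSPA13, a small HSP70-like ATPase of microsomes, had 0.07 (95% interval -0.24 to 0.39, adjusted p = 0.699).

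The J-domain proteins and their partner, which bring substrates to HSPA5, held 1 call in 4 genes. DNAJB11 (ERdj3, chromosome 3 from 186567403 to 186585800) had 3278, 2973 and 3381 counts in si-NC and 3775, 3449 and 3912 in si-METTL16 samples. All silenced samples lay above the controls. This was a log2 fold change of 0.25 (SE 0.06, 95% interval 0.11 to 0.40, adjusted p = 0.0173), or 119% of control. The adjusted p was 0.0542 without si-NC replicate 2 and 0.0579 without si-METTL16 replicate 1, and 381 exonic bases are shared with TBCCD1 on the opposite strand.

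DNAJC3 (p58IPK), a co-chaperone that also inhibits PERK, differed by 0.17 on the log2 scale with groups that did not overlap, but with an adjusted p of 0.0763. DNAJB9 (ERdj4), which holds IRE1 inactive together with HSPA5, differed by 0.18 with an adjusted p of 0.303. SDF2L1, a partner of DNAJB11, differed by -0.04 with an adjusted p of 0.815. The 95% intervals of these 3 genes reached from -0.30 at the lowest to 0.49 at the highest.

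The lectin chaperones, which hold glycoproteins until they are folded, held 0 calls in 2 genes by edgeR, DESeq2 or limma, and 0 at an unadjusted p under 0.05 in edgeR. CANX, the membrane-bound one, had between 24260 and 25444 counts in si-NC and between 23022 and 25983 in si-METTL16 samples. Its log2 fold change of 0.01 had a narrow interval of -0.09 to 0.10, and its sign turned under library totals (-0.016) and upper-quartile factors (-0.023). CALR, the soluble one, had 0.09 (95% interval -0.12 to 0.30, adjusted p = 0.455).

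Among the 4 disulfide isomerases 1 passed the test. PDIA4 (ERp72, chromosome 7 from 149003062 to 149028641) had 4687, 5235 and 4805 counts in si-NC and 5706, 5701 and 6389 in si-METTL16 samples. The groups were apart, and the silenced samples were the more uniform in CPM. PDIA4 went from 286.6 ± 19.0 to 356.2 ± 8.93 CPM (SD, n = 3), a log2 fold change of 0.31 (SE 0.06, 95% interval 0.17 to 0.46, adjusted p = 0.00767), and was called under each alternative.

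P4HB, the founding disulfide isomerase, had 6857, 7612 and 8277 counts in si-NC and 9344, 8910 and 7765 in si-METTL16 samples. Here si-METTL16 replicate 3 fell among the controls while the other two silenced samples stood above them. The log2 fold change of 0.25 (SE 0.12) had an adjusted p of 0.144, and without si-METTL16 replicate 3 it was 0.37 with an adjusted p of 0.0159. PDIA3, the isomerase that works with the lectin chaperones, had -0.08 (adjusted p = 0.453), and PDIA6 had -0.06 (adjusted p = 0.397). Reads of PDIA3 are uncertain, since its processed copy PDIA3P1 was counted 11347 times over the 6 samples, which is 16.3% of the counts of both.

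Both secreted ER stress proteins fell. CRELD2 (chromosome 22 from 49918167 to 49927540), an ER protein with EGF-like domains that is also secreted, had 529, 474 and 543 counts in si-NC and 240, 238 and 268 in si-METTL16 samples. The replicates of each group were close together and the groups far apart. CRELD2 went from 30.1 ± 1.86 to 14.9 ± 0.317 CPM (SD, n = 3), a log2 fold change of -1.01 (SE 0.09, 95% interval -1.22 to -0.80, adjusted p = 3.24e-04), the smallest adjusted p among the members. It was called under each alternative, and it shares 168 exonic bases (3.25%) with ALG12 on the opposite strand.

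MANF (chromosome 3 from 51385047 to 51389397), an ER-retained factor that protects neurons and beta cells, had 887, 994 and 893 counts in si-NC and 694, 606 and 851 in si-METTL16 samples. The groups were apart in CPM, with si-METTL16 replicate 3 nearest to the controls. Its log2 fold change was -0.33 (SE 0.10, 95% interval -0.57 to -0.10, adjusted p = 0.0376). The call was held without si-METTL16 replicate 3 and lost on leaving out any other sample, with adjusted p of 0.0654, 0.102 and 0.0567 without si-NC replicates 1, 2 and 3 and of 0.0895 and 0.101 without si-METTL16 replicates 1 and 2. It was also lost with no filter on low counts (adjusted p = 0.0653) and in limma on log2(FPKM + 1) with no minimum level (adjusted p = 0.0639).

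ERAD draws misfolded proteins out of the ER for the proteasome, and 2 of its 7 tested members fell. SEL1L (chromosome 14 from 81471549 to 81533861), the adaptor that stabilises the ubiquitin ligase HRD1, had 3512, 3125 and 3263 counts in si-NC and 2264, 2106 and 2327 in si-METTL16 samples. All silenced samples were well below the controls. The log2 fold change of SEL1L was -0.52 (SE 0.07, 95% interval -0.68 to -0.36, adjusted p = 0.00124), or 69.6% of control, and it was called under each alternative.

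EDEM1 (chromosome 3 from 5187646 to 5219957), a lectin that passes mannose-trimmed glycoproteins to degradation, had 1462, 1535 and 1517 counts in si-NC and 1127, 1229 and 1229 in si-METTL16 samples. The controls were tight, and the silenced samples were all below them. Its log2 fold change was -0.29 (SE 0.08, 95% interval -0.47 to -0.11, adjusted p = 0.0244). The adjusted p was 0.0518, 0.0706 and 0.0611 without si-NC replicates 1, 2 and 3, and 0.0706 and 0.0753 without si-METTL16 replicates 1 and 3, so that the call was held on leaving out si-METTL16 replicate 2 alone.

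HERPUD1, an ER membrane protein that gathers the HRD1 complex, gave the least even values of the list, with 836, 610 and 829 counts in si-NC and 867, 367 and 448 in si-METTL16 samples. One silenced sample, replicate 1, was as high as the controls and the other two were below them. Its log2 fold change was -0.39 (SE 0.31, 95% interval -1.13 to 0.35, adjusted p = 0.371). Without si-METTL16 replicate 1 it was -0.87 with an adjusted p of 0.0101, so that a single library decided the call.

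SYVN1, which encodes HRD1 itself, had a log2 fold change of 0.04 (95% interval -0.17 to 0.25, adjusted p = 0.745). DERL1 and DERL2, derlins of the retrotranslocation channel, had 0.15 (adjusted p = 0.19) and 0.06 (adjusted p = 0.711), and DERL1 had 0.23 with an adjusted p of 0.0391 without si-METTL16 replicate 3. SELENOS, a selenoprotein that binds the derlins and VCP, had 0.19 (95% interval 0.02 to 0.36, adjusted p = 0.0861), with groups that did not overlap. DERL3, with 1, 3 and 6 counts in si-NC and 0, 4 and 0 in si-METTL16 samples, was at the limit of this depth, and 77.0% of its exonic bases overlap SMARCB1 on the opposite strand.

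In translocation and COPII transport 1 of 4 members passed the test. SEC24D (chromosome 4 from 118722823 to 118838683), which selects cargo for the COPII coat, had 685, 657 and 628 counts in si-NC and 364, 381 and 446 in si-METTL16 samples. The groups were far apart against a small spread. SEC24D had a log2 fold change of -0.69 (SE 0.09, 95% interval -0.90 to -0.48, adjusted p = 0.00132), or 62.1% of control, and was called under each alternative. SEC23B and SEC31A, of the inner and outer layers of the same coat, had 0.03 (adjusted p = 0.808) and -0.14 (adjusted p = 0.192). SEC61B, of the translocon, had -0.12 (adjusted p = 0.249), and WFS1, a glycoprotein of the ER membrane, had -0.00 (95% interval -0.39 to 0.38, adjusted p = 0.987).

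Seen sample by sample, the median member moved little. The median deviation of the members from the si-NC mean, in log2 CPM, stood at 0.06, -0.04 and -0.02 for the controls (replicates 1 to 3) and at -0.02, -0.09 and -0.08 for the silenced samples. The medians of silenced replicates 2 and 3 were below each control, and that of replicate 1 lay among the controls. Together the members held between 0.742% and 0.811% of all counts in a sample. The silenced replicates differed in which members stood out, with HERPUD1 and WFS1 higher in replicate 1 than in the other two.

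**Figure D3:**
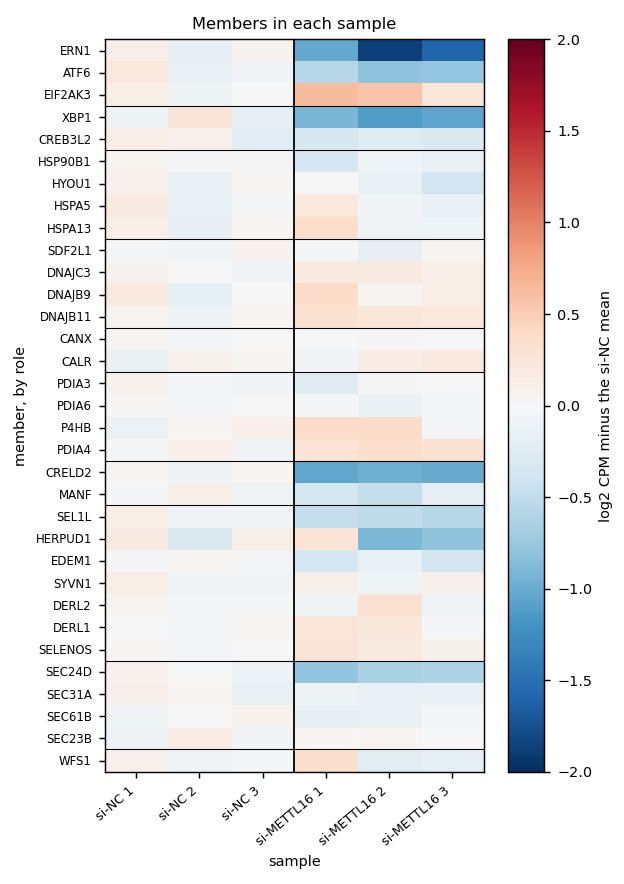
Log2 CPM of each tested member (y axis, by role) in each of the 6 samples (x axis), as the difference from the si-NC mean, on a colour scale from -2 to 2 with blue below and red above the controls. ERN1 lay between -1.87 and -1.02 in the silenced samples, and the rows of XBP1, ATF6, CRELD2, SEL1L and SEC24D are blue in all 3, while most chaperone rows stay pale.

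Levels per gene length were compared with the deposited FPKM, which scales counts by gene length and sample total. HSPA5 was the most abundant member, at 271.7 ± 32.7 FPKM in si-NC and 269.4 ± 34.4 FPKM in si-METTL16 samples (SD, n = 3). CANX followed at 142.0 ± 2.46 FPKM in si-NC, and CALR and PDIA3 at 117.1 ± 10.2 and 107.9 ± 4.58 FPKM did not differ beyond the SD of CALR. At the low end in si-NC, ERN1 at 2.66 ± 0.255 FPKM did not differ beyond its SD from CREB3L2 at 2.75 ± 0.341 and SEC24D at 2.76 ± 0.169 FPKM. ERN1 fell to 0.945 ± 0.294 FPKM in si-METTL16 samples, and CRELD2 fell from 4.03 ± 0.250 to 1.97 ± 0.0481 FPKM.

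The calls were also counted by level. Of the 11 members with a mean of at least 20 FPKM, a limit chosen after the values were seen, 2 were called, and their absolute log2 fold changes ran from 0.01 to 0.31. Among all genes at or above that level, 51.3% of 1644 were called. Of the 22 tested members under 20 FPKM, 9 were called, against 34% of 13445 genes called in either direction at that level. Of these 9 members, 8 were lower, and 17.5% of all tested genes at any level were called lower. The share of genes called lower was not computed by level. No test was run of the difference between these shares, and most of the tested members lie under the limit.

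**Figure D4:**
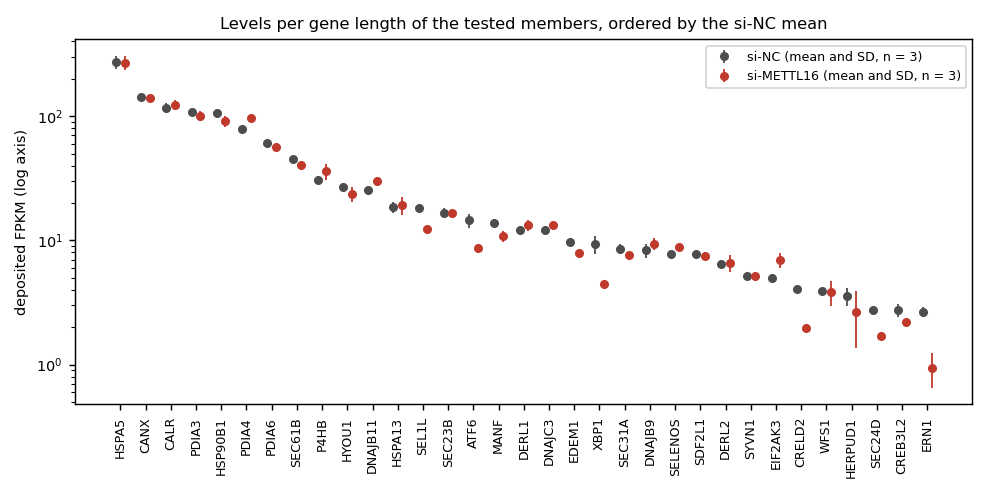
Mean FPKM on a log axis (y axis) of the 33 tested members (x axis, ordered by the si-NC mean) in si-NC and si-METTL16 samples, with SD over 3 replicates. The pairs of points lie close together at the abundant end, from HSPA5 at 271.7 FPKM, and apart for SEL1L, ATF6, XBP1, CRELD2, SEC24D and ERN1.

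The promoters of the members were read because cleaved ATF6 and XBP1, whose genes both fell, are known to act through the ER stress response element (ERSE). The motifs searched on both strands were ERSE, which is CCAAT followed after any 9 bases by CCACG, and ERSE-II, which is ATTGG followed after any 1 base by the same ending. That ending alone, which is part of both, was searched too, as was the UPRE core, spelled TGACGTGG or TGACGTGA. The first spelling of the core holds the shared ending of the ERSE motifs on its other strand. A promoter window ran from 250 bases before to 50 bases after a start site, and 30 of the 34 members had an entry in the RefSeq table (GRCh38.p14). ERSE was found for HSPA5, HSP90B1, CALR, CANX, PDIA6, CRELD2 and XBP1, against 0.0769% of 35116 promoters in the table. ERSE-II was found for HYOU1, SDF2L1 and HERPUD1, against 0.0541% of promoters, and the UPRE core for HYOU1, against 1.18%. The shared ending alone was found for 24 of the 30 members, against 38.1% of promoters. Members were counted by gene over their 41 promoters, with a match in any of them sufficing, whereas the table was counted by promoter. The shares are therefore not of the same unit. The members were also chosen as known genes of this response, so a higher share of these motifs in them is no result of these data.

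The sequences of 4 of these promoters are printed to set members with and without a change in RNA side by side. Capitals mark the letters of ERSE fixed by the motif, and each window is read 5′ to 3′ on the strand of its gene. HSPA5 (chr9:125241361-125241439, minus strand) and HSP90B1 (chr12:103930186-103930369, plus strand, with a motif in each orientation) did not pass the test, and XBP1 (chr22:28800573-28800651, minus strand) and CRELD2 (chr22:49918524-49918602, plus strand, motif on the other strand) fell.
HSPA5: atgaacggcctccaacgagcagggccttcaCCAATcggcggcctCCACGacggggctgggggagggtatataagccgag
HSP90B1: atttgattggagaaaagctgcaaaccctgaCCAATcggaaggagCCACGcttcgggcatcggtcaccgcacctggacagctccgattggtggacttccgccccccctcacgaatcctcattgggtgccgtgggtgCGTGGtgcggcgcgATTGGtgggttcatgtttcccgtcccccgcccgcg
XBP1: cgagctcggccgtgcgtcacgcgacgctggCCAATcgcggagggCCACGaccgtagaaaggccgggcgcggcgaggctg
CRELD2: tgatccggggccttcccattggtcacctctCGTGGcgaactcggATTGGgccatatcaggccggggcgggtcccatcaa

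These 4 windows were chosen because they hold the full element. HSPA5 and XBP1 read it in the same orientation within 66 bases of the start site. Of the 10 members with ERSE or ERSE-II, 2 were lower (XBP1 and CRELD2), 0 were higher and 8 did not pass the test, against 17.5% of all tested genes called lower and 18.4% called higher. The share of 2 lower genes in 10 is near that background. A match says only that these letters are present.

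Genes of the neighbouring pathways were described from lists of further genes, none of whose tested genes is a member. In the PERK branch and ATF4 target list, 2 of 15 tested genes were higher and 3 lower, with a median log2 fold change of -0.02. ATF4, the transcription factor favoured by PERK, had 0.09 (adjusted p = 0.457), and DDIT3 (CHOP), its pro-apoptotic target, had 0.47 (adjusted p = 0.29) and shares 27.2% of its exonic bases with MARS1 on the opposite strand. PPP1R15A (GADD34), the phosphatase subunit that reverses PERK's mark, was the highest at 0.93 (SE 0.20, adjusted p = 0.00982). It had 80.0, 55.7 and 45.4 CPM in si-METTL16 replicates 1 to 3, and lay between 0.668 and 1.098 when single samples were left out. CHAC1, a glutathione-degrading enzyme, was the lowest at -2.21 (SE 0.32, adjusted p = 0.00199). The called genes of this list thus went in both directions, as the sensors did.

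Among other UPR signalling genes, 2 of 15 tested genes were higher and 6 lower, with a median of -0.11. CREB3, an ER-anchored transcription factor, was the highest of those called at 0.45 (adjusted p = 0.00339), and BBC3 (PUMA), a pro-apoptotic BH3 protein, the lowest at -1.15 (adjusted p = 0.00337). Named after their values were seen, MBTPS1 and MBTPS2, the Golgi proteases that cleave ATF6, were lower at -0.35 (adjusted p = 0.0184) and -0.81 (adjusted p = 5.76e-04), and RTCB, the ligase that joins the XBP1 exons, was lower at -0.22 (adjusted p = 0.029). MBTPS2 was called under each of the 17 alternatives, MBTPS1 under 14 and RTCB under 10.

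Other ER chaperones and folding enzymes were split evenly, with 6 of 31 tested genes higher and 6 lower and a median of -0.11. DNAJC1, a J-domain protein of the ER membrane, was the highest at 1.51 (SE 0.09, adjusted p = 1.11e-04), and FKBP9, a prolyl isomerase, the lowest at -0.75 (SE 0.14, adjusted p = 0.00638). In N-glycosylation and glycoprotein quality control 3 of 18 were higher and 2 lower, with a median of 0.01. GANAB, the catalytic subunit of glucosidase II, was the highest at 1.63 (SE 0.09, adjusted p = 9.2e-05), and MAGT1, an oligosaccharyltransferase subunit, the lowest at -0.70 (SE 0.06, adjusted p = 3.73e-04).

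Among other ERAD genes 4 of 24 were higher and 7 lower, with a median of -0.07. The highest was ERLIN1, of the ER lipid raft complex, at 0.92 (adjusted p = 1.21e-04), and the lowest EDEM2, which starts mannose trimming, at -0.80 (adjusted p = 4.53e-04). Other translocon and COPII genes had 4 of 35 higher and 14 lower (51.4% called in either direction), with a median of -0.13. SEC61G, the small subunit of the translocon, was the highest at 0.33 (adjusted p = 0.0234, held in 2 of the 6 fits without a sample), and KDELR3, a receptor that returns ER proteins from the Golgi, the lowest at -1.004 (SE 0.11, adjusted p = 6.49e-04).

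The list of cytosolic heat shock chaperones also holds the transcription factor HSF1. Of the 15 tested genes of this list, 4 were higher and 3 lower, with a median of 0.17. HSPH1 (HSP110) was the highest at 0.60 (SE 0.04, adjusted p = 1.88e-04), and BAG3, a co-chaperone of HSP70, the lowest at -0.39 (SE 0.06, adjusted p = 0.00396). These 7 lists were written with earlier results of these data known. Their counts are read beside the 35.9% of all tested genes that were called, of which 18.4% were higher and 17.5% lower as shares of all tested genes. The 14 lower of 35 translocon and COPII genes lie above that 17.5%, and no test of this was run.

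**Figure D5:**
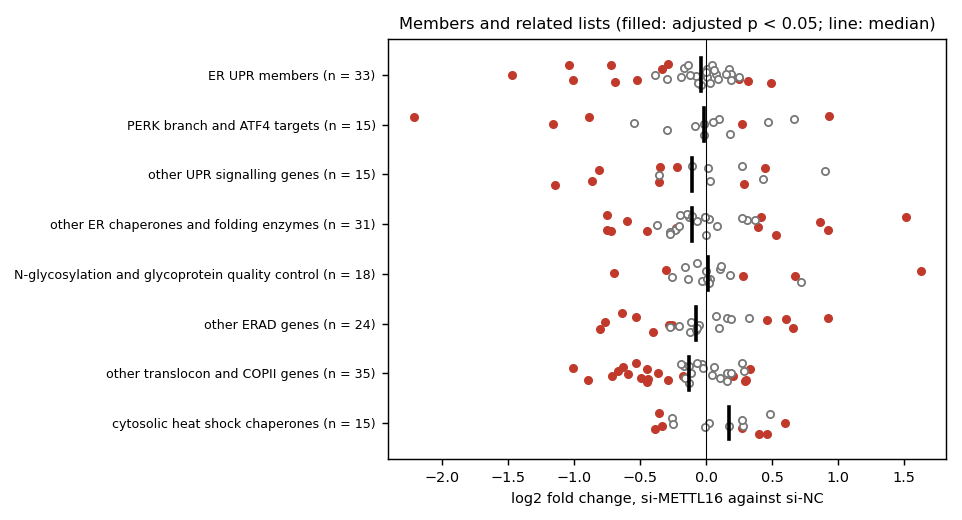
Log2 fold change (x axis) of each tested gene in the member list and in 7 lists of related genes (y axis, with the number tested), where filled points passed an adjusted p of 0.05 and the bar is the median of the list. Medians lie between -0.13 for other translocon and COPII genes and 0.17 for cytosolic heat shock chaperones, and CHAC1 at -2.21 and GANAB at 1.63 are the outermost points.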

How the data were processed

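RNA-seq of 6 PANC-1 samples was analysed, with groups and replicate numbers read from the titles. In 1 table the authors deposited raw counts and FPKM values. FPKM is the count scaled by gene length and sample total, and the length implied by both differed between samples by at most 0.00175%. Per the submitters' processing notes, HISAT2 2.0.4, StringTie 1.3.0 and GRCh38 (hg38) were used. The counter, the annotation and the use of strand are not given in the sources used here, so reads of genes that overlap on opposite strands cannot be assigned with certainty. 27 date-like symbols left by spreadsheet software were restored from the gene identifiers.

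Genes were filtered with filterByExpr (minimum count 10, minimum total 15), scaled by TMM and tested by the quasi-likelihood functions glmQLFit and glmQLFTest (edgeR 4.0.16, R 4.3.3). P-values were adjusted after Benjamini-Hochberg over 15089 genes, with a threshold of 0.05. CPM values are TMM-scaled. Standard errors were taken from the log2 fold change and its F statistic, and the 95% intervals from the degrees of freedom of the fit. The study's methods name limma, which was run as an alternative (limma 3.58.1), beside DESeq2 1.42.0, other scalings, filters and pseudocounts, a replicate block and fits without single samples. Scripts were tested on simulated data. The samples are described as biological triplicates, and p-values set the group difference against the spread between these samples, estimated with the help of all tested genes. They do not cover differences between cell lines. The common biological coefficient of variation was 16.5%. Intervals and limits of counts cover sequenced reads, which carry no molecular identifiers.

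Gene positions were copied from the deposited table. GENCODE v44 gives equal positions for 11 of the 34 members and overlapping ones for all 34. The members and gene lists were chosen with earlier results of these data known. Named were all members, ATF4, DDIT3 and CHAC1, and the called genes with the highest and lowest log2 fold change of each other list. MBTPS1, MBTPS2, RTCB, TXNDC5, TRIB3 and SESN2 were named outside this rule, after their values were seen. VIMP, listed with the other ERAD genes, had no entry under that older name of SELENOS. Promoters came from RefSeq (GRCh38.p14) and the XBP1 intron from GENCODE v44.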

Additional observations from a re-analysis of the deposited data

How the results depend on the processing

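Over the 17 alternatives, 7 of the 11 called members (ERN1, ATF6, XBP1, CRELD2, SEL1L, SEC24D and PDIA4) were called in each. Of 187 values of called members, 167 were still called, 20 were not and 0 changed sign. Of 374 values of the other members, 4 were called and 26 changed sign, none of these 26 past the threshold. On leaving out single samples, between 1 and 5 members were higher and between 6 and 7 lower. With an adjusted p under 0.01, 1 member was higher and 6 lower. The median over members lay between -0.08 and -0.02 in the fits without a sample, within its SD of 0.046 between samples.

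HSPA5 was -0.013 under library totals, -0.019 under upper-quartile factors and -0.013 under each limma fit of FPKM, and CANX was -0.016, -0.023 and -0.016 under the same settings. SEC23B was -0.002 under upper-quartile factors. Without single samples, HSPA5 lay between -0.106 and 0.103, CANX between -0.013 and 0.014, HSPA13 between -0.082 and 0.15, SDF2L1 between -0.088 and 0.015, SYVN1 between -0.001 and 0.102, DERL2 between -0.082 and 0.131, SEC23B between -0.027 and 0.102 and WFS1 between -0.221 and 0.095. The cause of these changes was not tested.

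Replicate numbers are shared by the groups. Over all tested genes, same-numbered samples correlated only weakly in their deviations, at 0.0253, 0.0371 and 0.0298. A weak correlation over all genes cannot exclude that some genes follow the number. DNAJB9 was highest in replicate 1 and lowest in replicate 2 of both groups in CPM, whereas DERL2 did not follow the number. DERL2 shares 301 exonic bases with MIS12 on the opposite strand. MIS12 had 239, 735 and 310 counts in si-METTL16 replicates 1 to 3, and its part in the DERL2 counts was not tested. Whether the numbers pair the samples cannot be told from these values. With the replicate block, 3 members were higher and 7 lower, with a median of -0.04, and MANF had an adjusted p of 0.0785. DERL3 was limited by depth, and HERPUD1 by the spread of 3 samples.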

Other observations

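TXNDC5, a disulfide isomerase of the ER listed with the folding enzymes, had 8231, 1020 and 8040 counts in si-NC and 6831, 2709 and 7413 in si-METTL16 samples. Its read-through gene BLOC1S5-TXNDC5 had 0, 7721 and 0 and 0, 3702 and 0 counts in the same samples. The sums of the pair were 8231, 8741 and 8040 in si-NC and 6831, 6411 and 7413 in si-METTL16 samples, so that replicate 2 of each group held reads under the read-through name. TXNDC5 alone had a log2 fold change of -0.01 (SE 0.69, adjusted p = 0.997), a value that this assignment makes unusable.

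The si-METTL16 replicate 1 that was high for HERPUD1 was also high for stress genes outside the members, both chosen after their values were seen. TRIB3, a pseudokinase induced by ATF4, had 1399, 954 and 1378 counts in si-NC and 2033, 673 and 863 in si-METTL16 samples. SESN2, a sestrin of the same response, had 938, 796 and 1162 counts in si-NC and 1194, 553 and 523 in si-METTL16 samples. Their log2 fold changes were -0.02 (SE 0.40, adjusted p = 0.978) and -0.30 (SE 0.33, adjusted p = 0.519).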
